A study of Rattus norvegicus with 6 samples.

Results

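Matrix metalloproteinases (MMPs), the ADAMTS proteases with their ADAMTS-like (ADAMTSL) relatives, and the tissue inhibitors of metalloproteinases (TIMPs) were examined in mammary tumors of older and younger rats. Genes were taken by symbol alone, as every row of the read count table named Mmp, Adamts, Adamtsl or Timp with a number. This gave 51 of the 30562 rows, with 23 MMP, 19 ADAMTS, 5 ADAMTSL and 4 TIMP genes. Bulk RNA-seq was available for 6 tumors, each a single library, with 3 from older F344 rats (tumors 102, 107 and 116) and 3 from younger F344 rats (tumors 157, 158 and 167). The older rats came from rodent colonies of the National Institute on Aging at 19 to 21 months. They were 21 to 23 months old when they received the carcinogen. The younger rats, described as virgin, were bought from Envigo at 6 to 8 weeks and received it at 4 months. Source and age of the animals therefore cannot be told apart. All rats of both groups carried a pellet with 50 mg of medroxyprogesterone acetate (MPA), a progestin released over 90 days, and were given 7,12-dimethylbenz[a]anthracene (DMBA) once by gavage at 65 mg per kg, so there is no untreated tumor in the comparison. F344 is an inbred strain, tumors were induced rather than transplanted, and only animals that developed a carcinoma enter the comparison. The younger tumors are all that arose in their group, whereas the older ones were chosen for sufficient tissue.

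MMPs are zinc-dependent endopeptidases that are made as inactive precursors and cut collagens, elastin, laminins, growth factor carriers and other MMPs once the propeptide is removed. Most are secreted, and the membrane types are anchored to the cell surface. ADAMTS proteases are secreted enzymes with thrombospondin repeats that trim procollagens, cut proteoglycans or act on microfibrils and von Willebrand factor, whereas ADAMTSL proteins have the same ancillary domains without a protease domain. TIMPs bind the active site of these enzymes, so that matrix turnover depends on the balance of enzyme, activator and inhibitor. In the mammary gland these genes take part in duct branching and involution, and in tumors much of their RNA comes from stromal and immune cells.

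Totals ran from 3508571 to 6525830 counts per tumor, and levels are given as CPM, counts scaled to a common library total with edgeR's TMM factors, on which 3 counts correspond to between 0.516 and 0.99 CPM. CPM values were not divided by transcript length, so they are compared between tumors and not between genes. Tumor 102 stood apart from the rest, with the highest value in 26.0% and the lowest value in 27.3% of all genes tested. It also had the lowest total, 3508571 counts, and the part of depth in these shares was not tested. Results without tumor 102 are given for some genes, but not for all whose estimates change with it. Luminal epithelial markers were present in every tumor, with a summed level of 1399 to 1516 CPM in the older and 1822 to 2050 CPM in the younger tumors, and 7 of 7 tested markers had lower fitted values in the older tumors without any reaching an unadjusted p under 0.05. In whole tumor RNA, fewer cells of a type and less RNA per cell cannot be told apart.

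The first question was how many of these genes differed between the tumors of older and younger hosts. Enough counts for a test were found for 37 of the 51 genes, namely 14 MMP, 15 ADAMTS, 4 ADAMTSL and 4 TIMP genes. After Benjamini-Hochberg adjustment over the 14060 genes tested, edgeR's quasi-likelihood test called 0 of the 37, beside 0% of all genes, and the smallest adjusted p of a member was 0.228 for Timp4. An unadjusted p under 0.05 was reached by 9 of the 37, or 24.3%, beside 8.55% of all genes tested. Of these 9, 8 were higher in older tumors (21.6% of 37, beside 5.28% of all genes) and 1 was lower (2.7%, beside 3.26%). The 3 older tumors lay entirely above or below the 3 younger ones for 7 of the 37 (18.9%, beside 12.2%), with 6 above (16.2%, beside 6.58%) and 1 below (2.7%, beside 5.58%). The alternative test, DESeq2, called 3 of the 37 at an adjusted p under 0.05 (8.11%, beside 2.46%), namely Timp4, Adamts14 and Mmp7, and limma-voom called 0. These 3 genes entered the test mainly or only through the older tumors, where they were high. All 3 are also among the 8 higher genes and the 6 genes above. The shares that include them are therefore not read against those of all genes. Without them, 6 of 34 tested members had an unadjusted p under 0.05 in edgeR (17.6%). Without tumor 102, 10 of 39 tested members had an unadjusted p under 0.05, again with these 3 among them, beside 7.19% of all genes tested in that fit.

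These counts do not describe the families evenly, because low genes enter the test only if enough tumors have counts. Mmp7 and Timp4 had no younger tumor at 2.14 CPM, the level of 10 counts at the median total, and so passed through the older tumors alone, as did 111 of all 14060 genes through one group or the other. Adamts14 had 1 younger tumor above that level. The 14 genes that were not tested were Mmp1, Mmp1b, Mmp8, Mmp10, Mmp20, Mmp21, Mmp23, Mmp27, Mmp28, Adamts8, Adamts16, Adamts19, Adamts20 and Adamtsl3. Of these, Mmp1 and Mmp20 had no count in any tumor, and 11 of the 14 stayed under 5 CPM in every tumor.

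The log2 fold change (older over younger) had a median of -0.003 over all genes tested. Its median was -0.03 for the 14 MMP genes, with 7 higher and 7 lower, and 0.19 for the 15 ADAMTS genes, with 11 higher and 4 lower. It was -0.46 for the 4 ADAMTSL genes, with 1 higher, and 0.17 for the 4 TIMP genes, with 2 higher and 2 lower. The MMP median lay between -0.11 and -0.03 under the TMM, size factor and library total scalings but ran from -0.17 to 0.61 when a tumor was left out, so it had no stable sign. The plot of fold changes shows the spread of single genes around these medians.

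**Figure D1:**
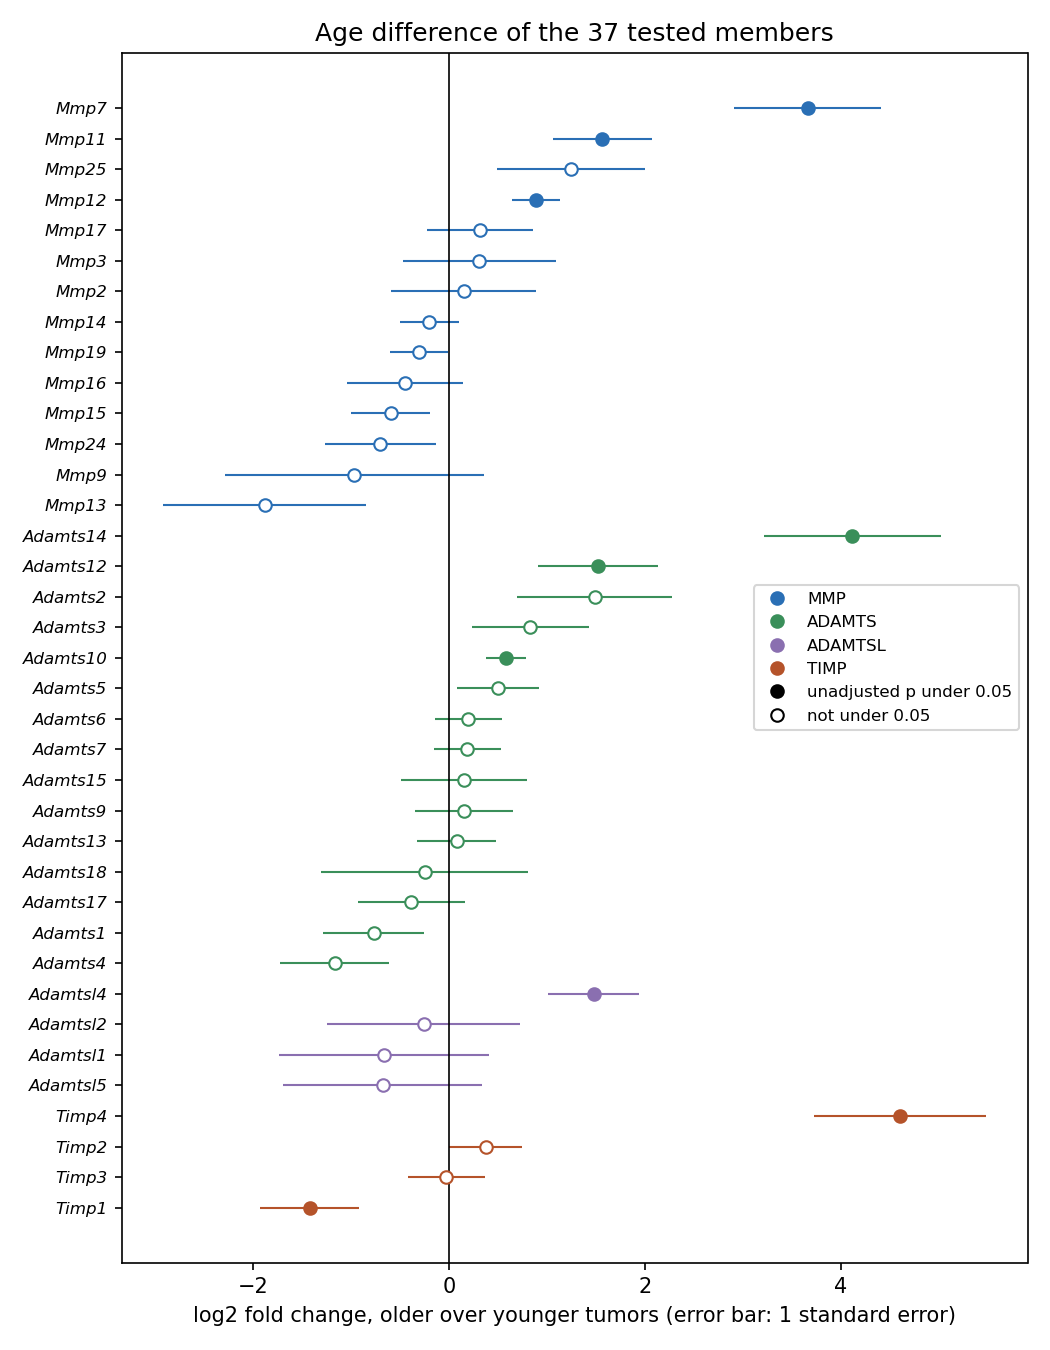
Fitted log2 fold change (older over younger tumors) of the 37 tested genes, grouped by family, with bars of 1 standard error and filled points for an unadjusted p under 0.05 in edgeR. Of the 9 filled points, 8 lie to the right of 0 and Timp1 lies to the left, and Timp4, Adamts14 and Mmp7 lie farthest to the right at 4.61, 4.12 and 3.66.

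Among the MMPs, the group of stromelysins, matrilysin and elastase had 4 of 4 tested genes (Mmp3, Mmp7, Mmp11 and Mmp12) with higher fitted values in older tumors. Mmp7, Mmp11 and Mmp12 had an unadjusted p under 0.05, as did 5.28% of all genes tested in this direction, and Mmp7 had passed the filter through the older tumors alone. Mmp7, Mmp12 and Mmp3 lie in a run of 10 neighbouring Mmp genes on chromosome 8, in the order Mmp13, Mmp12, Mmp1b, Mmp3, Mmp1, Mmp10, Mmp8, Mmp27, Mmp20 and Mmp7, with no other protein-coding gene between them in the RefSeq gene list of GRCr8. The 150 bases before the RefSeq start of 4 of these genes are shown because these genes shared letters at this position while their levels followed different patterns over the tumors. The sequences are from the plus strand of GRCr8 at chr8:13132893-13133042 (Mmp7), chr8:12866502-12866651 (Mmp12), chr8:12925131-12925280 (Mmp3) and chr8:12782679-12782828 (Mmp13), with capitals for the AP-1 letters TGACTCA or TGAGTCA and for TATAAA.
Mmp7: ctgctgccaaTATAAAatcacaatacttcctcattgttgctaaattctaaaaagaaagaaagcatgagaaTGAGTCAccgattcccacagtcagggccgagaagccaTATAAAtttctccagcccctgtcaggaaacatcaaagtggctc
Mmp12: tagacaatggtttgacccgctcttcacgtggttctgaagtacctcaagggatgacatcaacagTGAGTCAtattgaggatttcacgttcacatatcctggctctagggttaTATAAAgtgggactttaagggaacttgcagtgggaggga
Mmp3: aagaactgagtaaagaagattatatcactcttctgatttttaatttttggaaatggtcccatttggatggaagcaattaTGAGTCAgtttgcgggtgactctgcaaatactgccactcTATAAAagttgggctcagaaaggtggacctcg
Mmp13: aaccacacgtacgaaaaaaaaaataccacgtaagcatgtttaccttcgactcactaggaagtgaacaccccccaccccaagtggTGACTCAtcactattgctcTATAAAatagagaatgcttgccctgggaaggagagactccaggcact

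In each of the 4 windows the AP-1 letters stood upstream of the TATAAA nearest to the start. Their first base was 80 bases before the start in Mmp7, 87 in Mmp12, 71 in Mmp3 and 66 in Mmp13, and the nearest TATAAA began 43, 39, 32 and 47 bases before it. Mmp7 held another TATAAA upstream of the AP-1 letters, 140 bases before the start. Over the 250 bases before the start, searched on both strands for AP-1 and on the gene's strand for TATAAA, both were found in 6 of the 40 member genes with a RefSeq promoter entry (Mmp1, Mmp3, Mmp7, Mmp10, Mmp12 and Mmp13), beside 0.4% of 33469 promoters. AP-1 letters alone were found in 4.05% of promoters and TATAAA in 8.06%. All 6 genes are in the chromosome 8 run, and 0 of 14 ADAMTS and 0 of 4 TIMP promoters held the AP-1 letters. The letters GGGCGG or CCGCCC (GC box, both strands) were found in 20 of the 40, beside 30.5% of promoters, and AGGAAG or CTTCCT (PEA3, both strands) in 15 of the 40, beside 29.5%. These matches describe the exact letters only. Variants of these letters were not searched for, so a promoter without a match may still hold one. The 11 genes without an entry were not searched.

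Mmp7, matrilysin, is a small MMP without a hemopexin domain that epithelial cells can make. It was at 5.61, 3.73 and 3.48 CPM in older tumors 102, 107 and 116 and at 0.344, 0.528 and 0 CPM in younger tumors 157, 158 and 167. These values rest on 17, 17 and 18 counts against 2, 3 and 0, and the groups did not overlap. The pooled counts, 52 against 5, gave a ratio of 12.8 (exact 95% interval 5.15 to 41.1, covering counting error only). The fitted log2 fold change was 3.66 (SE 0.75, unadjusted p = 0.00138, adjusted p = 0.256, edgeR). It remained between 3.21 and 4.28 when each tumor was left out in turn. Since Mmp7 had passed the filter through the older tumors alone, its p-values are not read as support for a difference.

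Mmp12, macrophage elastase, was at 76.9, 53.5 and 77.2 CPM in the older tumors and at 40.4, 35.9 and 35.9 CPM in the younger tumors. Every older tumor lay above every younger one, and the younger tumors were within a narrow range of each other. The means were 69.2 ± 13.6 CPM and 37.4 ± 2.61 CPM (SD, n = 3 each), a 1.85-fold difference. The fitted log2 fold change was 0.89 (SE 0.25, unadjusted p = 0.00748, adjusted p = 0.343, edgeR), and it stayed between 0.80 and 1.04 with each tumor left out. Macrophage markers were also higher in the older tumors as a group. All 9 of 9 listed macrophage genes had higher fitted values there, 5 with an unadjusted p under 0.05, beside 5.28% of all genes tested, and none was at 0. Their summed level was 375, 460 and 245 CPM in the older and 183, 138 and 116 CPM in the younger tumors. Within the older group the order was the reverse of that of Mmp12, which was lowest in tumor 107 and highest in tumor 116. Their part in the Mmp12 difference was not tested.

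Mmp11, stromelysin 3, is made by fibroblasts around carcinomas and is activated inside the cell by furin. Its level was 11.9, 10.3 and 6.97 CPM in the older tumors and 4.64, 1.58 and 3.56 CPM in the younger ones. The groups did not overlap, with tumors 116 and 157 closest to each other. Its fitted log2 fold change was 1.56 (SE 0.51, unadjusted p = 0.0157, adjusted p = 0.406, edgeR), and it ran from 1.23 to 1.91 with each tumor left out. Mmp11 overlaps Chchd10 in the RefSeq list, and Chchd10 was lower in every older tumor (log2 fold change -0.53, unadjusted p = 0.0905, adjusted p = 0.692, edgeR). Only the gene bounds were compared, not the exons, and the strand setting of the counting is not given in the sources used here. It is therefore not known whether reads of overlapping genes were mixed. Fibroblast markers overlapped between the groups, with summed levels of 186 to 1413 CPM in older and 161 to 1098 CPM in younger tumors.

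Mmp3, stromelysin 1, shared the promoter letters and the chromosome 8 run but not the age pattern. It was at 3.96, 25.0 and 55.4 CPM in the older tumors and at 35.8, 13.2 and 19.7 CPM in the younger ones. Its lowest and highest tumors were both older, and its log2 fold change was 0.31 (SE 0.78, adjusted p = 0.960, edgeR). Summed over the group, the reads of Mmp3, Mmp7, Mmp10, Mmp11 and Mmp12 gave 98.3, 92.8 and 143 CPM in the older and 81.1, 51.2 and 59.1 CPM in the younger tumors. These sums did not overlap and were made up mainly of Mmp12 and Mmp3 reads.

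**Figure D2:**
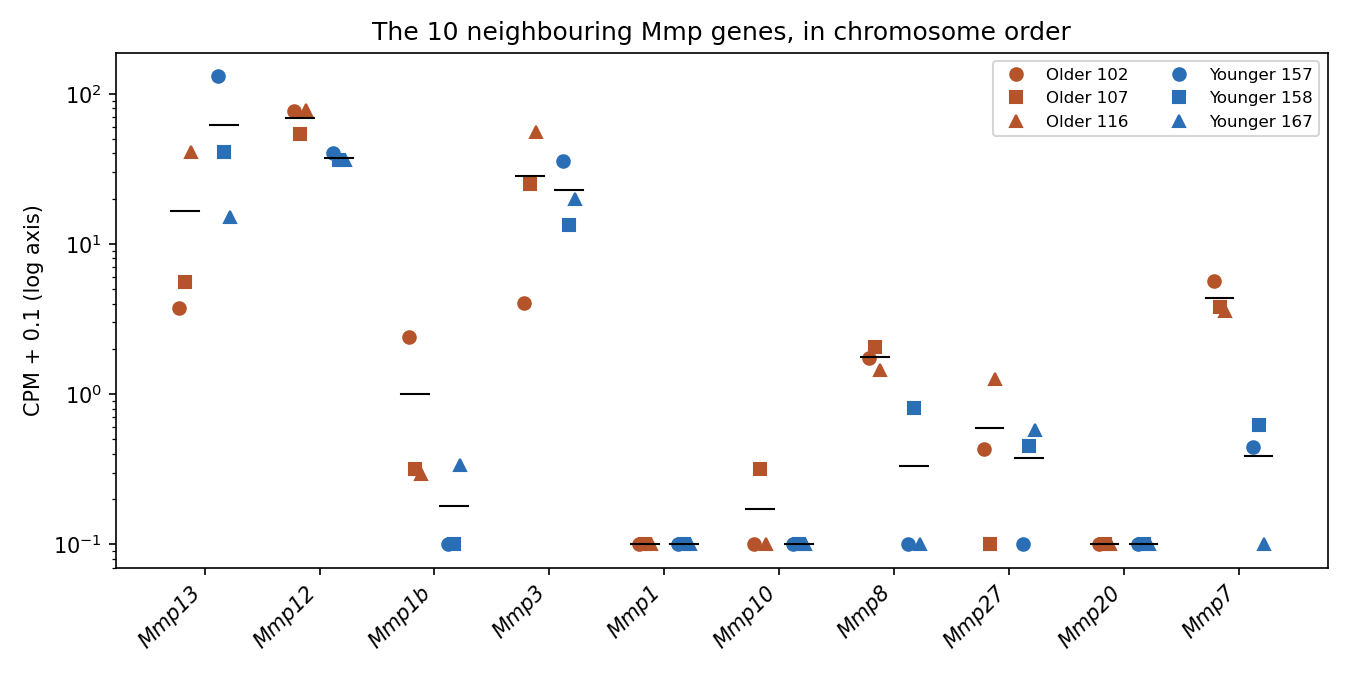
Level (CPM + 0.1, log axis) of the 10 neighbouring Mmp genes of chromosome 8 in each of the 6 tumors, in chromosome order, with a line at the mean of each age group of 3 tumors and points at 0.1 for a count of 0. Mmp12, Mmp8 and Mmp7 have all older tumors above all younger tumors, Mmp13 and Mmp3 overlap over a wide range, and Mmp1 and Mmp20 are at 0 throughout.

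Collagenases cut the triple helix of fibrillar collagens, and of these only Mmp13 had enough counts for a test. Mmp13, collagenase 3, was at 3.63, 5.49 and 40.6 CPM in the older tumors and at 130, 40.8 and 15.0 CPM in the younger ones. Tumor 157 alone held 55.2% of the summed CPM, and the groups overlapped. The log2 fold change was -1.88 (SE 1.04, unadjusted p = 0.109, adjusted p = 0.724, edgeR), and it ran from -3.75 (unadjusted p = 0.00781) without tumor 116 to -0.74 without tumor 157. DESeq2 gave an unadjusted p of 0.0426 and an adjusted p of 0.467 for it. Mmp8, the collagenase of neutrophil granules, had 5, 9 and 7 counts in the older and 0, 4 and 0 counts in the younger tumors. The older tumors lay above the younger ones in CPM, and the ratio of pooled counts was 6.47 (exact 95% interval 2.18 to 25.9, covering counting error only). When every gene with a count in any tumor was tested, the unadjusted p of Mmp8 was 0.0507 and its adjusted p 0.613 (edgeR). None of the 8 neutrophil markers had enough counts for a test, and their summed level was 1.65 to 5.03 CPM in older and 0.95 to 9.67 CPM in younger tumors.

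Gelatinases cut denatured collagen and basement membrane collagen. Mmp2 was at 194, 83.0 and 79.0 CPM in the older tumors and at 159, 144 and 16.9 CPM in the younger ones, where tumor 167 was lower than all others. Mmp9 was at 14.8, 5.27 and 1.16 CPM in the older and at 37.3, 1.41 and 1.66 CPM in the younger tumors. Each age group thus had tumors with high and tumors with low Mmp9, and tumor 157 held 60.5% of its summed CPM. The log2 fold change of Mmp2 was 0.15 (SE 0.74, adjusted p = 0.980, edgeR), and it was -0.41 without tumor 102. That of Mmp9 was -0.97 (SE 1.32, adjusted p = 0.920, edgeR), and its sign turned to 2.16 without tumor 157.

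Membrane-type MMPs act at the cell surface, and all 6 were tested, with 2 higher, 4 lower and 0 with an unadjusted p under 0.05. Mmp14, which activates the Mmp2 precursor together with Timp2, was at 199, 156 and 170 CPM in the older and at 274, 190 and 139 CPM in the younger tumors. The groups overlapped, and the log2 fold change was -0.20 (SE 0.30, adjusted p = 0.928, edgeR). The farthest from 0 among the 6 was Mmp25, anchored by a lipid tail and known from leukocytes, with 11.2, 20.4 and 3.87 CPM against 3.95, 9.15 and 1.66 CPM. Its groups overlapped at a log2 fold change of 1.25 (SE 0.76, adjusted p = 0.764, edgeR). Mmp15, Mmp16, Mmp17 and Mmp24 had log2 fold changes from -0.70 to 0.32, and Mmp19, outside these groups, had -0.31. Mmp23 had too few tumors with enough counts for the test and was highest in tumor 102. It was at 16.2, 0 and 1.35 CPM in the older and 3.09, 1.05 and 0.475 CPM in the younger tumors. Tumor 102 thus held 73.0% of the summed CPM of Mmp23.

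The procollagen N-peptidases remove the amino propeptide of fibrillar procollagens, the step before fibrils assemble. All 3 genes had higher fitted values in older tumors, and their summed level was 69.9, 83.8 and 64.7 CPM in the older and 27.2, 26.6 and 22.1 CPM in the younger tumors. The sums did not overlap, with means of 72.8 ± 9.91 CPM and 25.3 ± 2.77 CPM (SD, n = 3 each). The 3 genes reached these sums from different tumors, since Adamts2 and Adamts14 were highest in tumor 107 and Adamts3 in tumor 116. Of the 3, Adamts14 was the only one whose groups did not overlap, and the 150 bases before its RefSeq start are shown for their GC boxes, marked in capitals (GRCr8, minus strand, chr20:29762683-29762832).
Adamts14: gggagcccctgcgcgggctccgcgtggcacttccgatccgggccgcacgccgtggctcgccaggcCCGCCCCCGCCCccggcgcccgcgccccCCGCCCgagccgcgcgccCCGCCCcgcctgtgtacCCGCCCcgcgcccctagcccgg

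This window holds 86.7% G and C, and CCGCCC occurs in it 5 times. Adamts14 was at 17.1, 22.8 and 13.4 CPM in the older tumors and at 2.23, 0 and 0.713 CPM in the younger tumors. All older tumors were far above all younger ones, and 1 younger tumor had no count. Pooled counts of 225 against 16 gave a ratio of 17.3 (exact 95% interval 10.4 to 30.8, covering counting error only). The fitted log2 fold change was 4.12 (SE 0.90, unadjusted p = 0.00206, adjusted p = 0.265, edgeR). Leaving out each tumor kept it between 3.53 and 5.67, and without tumor 102 it was 4.15. DESeq2 gave an adjusted p of 7.39e-05 for it. Adamts14 had entered the test mainly through the older tumors, so its p-values are not read as support for a difference.

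Adamts2, the main N-peptidase of skin and bone, was at 42.6, 48.1 and 6.39 CPM in the older and at 12.9, 17.8 and 3.56 CPM in the younger tumors. Adamts3, which also processes the lymphatic growth factor VEGF-C, was at 10.2, 12.9 and 44.9 CPM in the older and at 12, 8.79 and 17.8 CPM in the younger tumors. Both overlapped between the groups. Their log2 fold changes were 1.49 (SE 0.79, adjusted p = 0.708, edgeR) for Adamts2 and 0.83 (SE 0.60, adjusted p = 0.811, edgeR) for Adamts3, and that of Adamts3 was -0.15 without tumor 116.

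The proteoglycanases cut aggrecan, versican and related core proteins, and 5 of 7 were tested, with 3 higher, 2 lower and 0 with an unadjusted p under 0.05. Adamts1 was at 50.1, 144 and 181 CPM in the older and at 295, 116 and 229 CPM in the younger tumors, a log2 fold change of -0.77 (SE 0.52, adjusted p = 0.790, edgeR). Adamts4 was at 12.9, 26.8 and 21.3 CPM in the older and at 55.7, 67.2 and 14.5 CPM in the younger tumors, a log2 fold change of -1.17 (SE 0.56, unadjusted p = 0.0699, adjusted p = 0.646, edgeR). For Adamts4, tumors 157 and 158 lay above all older tumors, but tumor 167 lay within them. Adamts5, the neighbour of Adamts1 on chromosome 11, went the other way from it with a log2 fold change of 0.50 (SE 0.42, adjusted p = 0.850, edgeR). Adamts9 and Adamts15 had a log2 fold change of 0.15 each, with no stable sign. That of Adamts9 ran from -0.22 to 0.65 with a tumor left out, and that of Adamts15 was -0.96 without tumor 102 (unadjusted p = 0.0515, adjusted p = 0.703, edgeR) and -0.05 with library totals. Adamts8, the neighbour of Adamts15 on chromosome 8, had too few tumors with enough counts for the test. It was at 2.97, 1.54 and 5.81 CPM in the older and at 0.860, 1.41 and 0.713 CPM in the younger tumors, which did not overlap. The ratio of pooled counts was 3.54 (exact 95% interval 1.97 to 6.70, covering counting error only). When every gene with a count in any tumor was tested, its unadjusted p was 0.0394 and its adjusted p 0.577 (edgeR).

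Adamts10, which binds fibrillin microfibrils, varied little within each age group. It was at 67.0, 67.2 and 72.8 CPM in the older and at 44.7, 47.0 and 46.8 CPM in the younger tumors. The means were 69.0 ± 3.30 CPM and 46.1 ± 1.26 CPM (SD, n = 3 each), and the difference between them was several times the spread within either group. The values rest on 203, 306 and 376 against 260, 267 and 197 counts, whose counting error is no smaller than these SDs. Its log2 fold change was 0.58 (SE 0.21, unadjusted p = 0.0246, adjusted p = 0.470, edgeR), and it stayed between 0.53 and 0.60 with each tumor left out. The unadjusted p in edgeR was 0.0975 with library totals in place of TMM. It was under 0.05 in 2 of the 6 fits with a tumor left out, and reached 0.0769 without tumor 157. Its paralog Adamts6 was at 8.25, 8.56 and 11.4 CPM in the older and at 7.74, 8.44 and 8.55 CPM in the younger tumors, with a log2 fold change of 0.19.

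Adamts12, which cuts cartilage oligomeric matrix protein, was at 40.9, 104 and 19.2 CPM in the older and at 28.2, 16.0 and 12.8 CPM in the younger tumors. Tumor 107 was far above the rest, and tumor 116 lay within the younger range. On the log2 scale the fold change was 1.52 (SE 0.61, unadjusted p = 0.0398, adjusted p = 0.551, edgeR) and was 0.65 (unadjusted p = 0.225) without tumor 107. Adamts7, with a related substrate range, was at 13.2 to 14.9 CPM in the older and 8.07 to 15.3 CPM in the younger tumors. Adamts13, which cuts von Willebrand factor, was at 7.24 to 9.48 CPM in the older and 5.10 to 10.4 CPM in the younger tumors. Adamts18 varied widely within both groups, with 4.95, 47.6 and 90.6 CPM against 98.2, 6.16 and 67.0 CPM.

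Of the ADAMTSL genes, Adamtsl4, which encodes a fibrillin-binding protein of the eye and other elastic tissues, was the only one with an unadjusted p under 0.05. It was at 75.5, 61.2 and 21.3 CPM in the older and at 18.6, 15.3 and 22.8 CPM in the younger tumors. Tumors 102 and 107 were well above the younger tumors, whereas tumor 116 was within their range. Its log2 fold change was 1.48 (SE 0.46, unadjusted p = 0.0136, adjusted p = 0.389, edgeR). It ran from 1.12 without tumor 102 to 1.85, with an unadjusted p under 0.05 in all 6 fits. Adamtsl1, Adamtsl2 and Adamtsl5 had log2 fold changes from -0.68 to -0.26 with standard errors of 0.98 to 1.07. Adamtsl5 depended on tumor 102, without which its log2 fold change was -2.61 (unadjusted p = 0.0251, adjusted p = 0.555, edgeR).

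**Figure D3:**
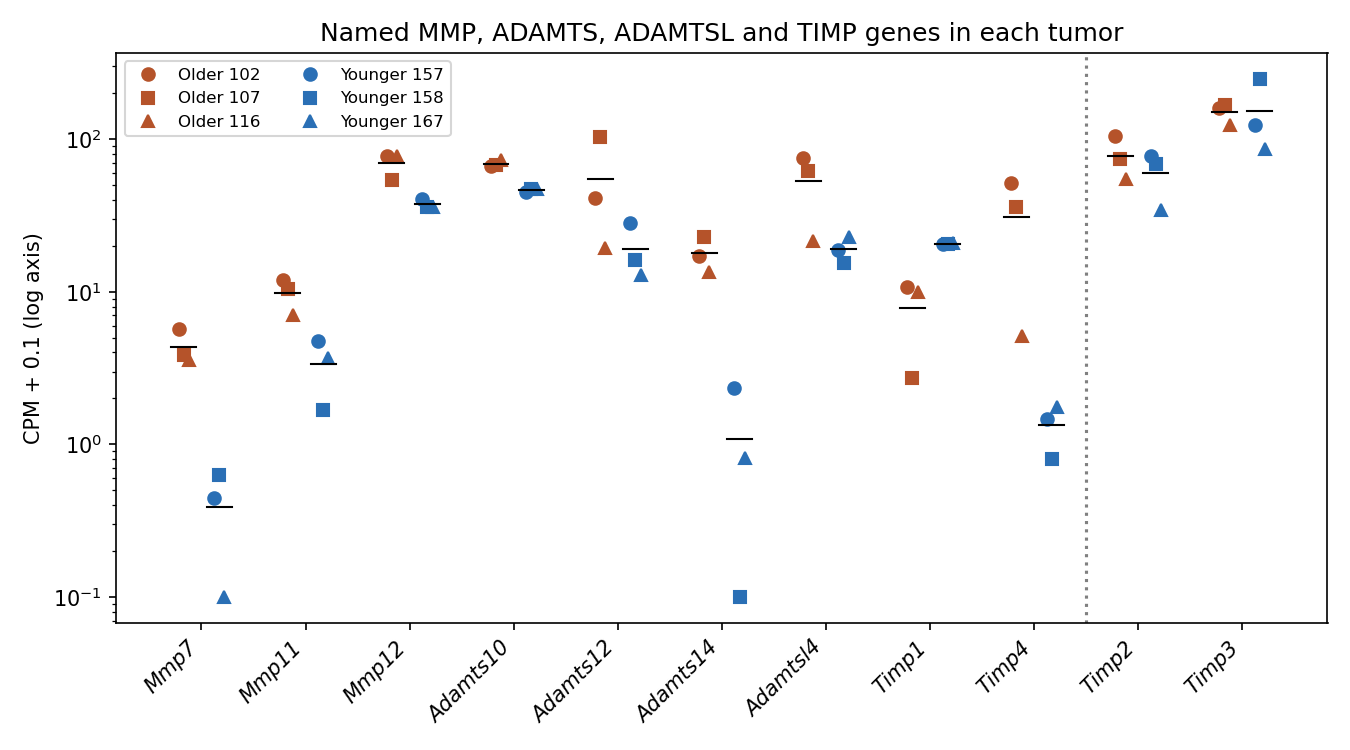
Level (CPM + 0.1, log axis) of the 9 genes with an unadjusted p under 0.05 and, right of the dotted line, of Timp2 and Timp3, with older tumors in red-brown, younger tumors in blue and a line at the mean of each group of 3 tumors. The groups are apart for 7 of the 9, with Timp1 lower in the older tumors, and overlap for Adamts12, Adamtsl4, Timp2 and Timp3.

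The inhibitors were considered apart from the proteases. The 4 TIMPs split, since Timp4 was higher and Timp1 lower in the older tumors, while Timp2 and Timp3 overlapped between the groups. In the RefSeq list of GRCr8, Timp1 lies within Syn1, Timp3 within Syn3 and Timp4 within Syn2. The 150 bases before the start of Timp4 (chr4:149985205-149985354) and of Timp1 (chrX:3771123-3771272), both on the minus strand of GRCr8, are shown because these genes went in opposite directions. The only capitals mark a GC box in Timp1, as none of the AP-1, TATAAA or GC box letters occurs in this window of Timp4.
Timp4: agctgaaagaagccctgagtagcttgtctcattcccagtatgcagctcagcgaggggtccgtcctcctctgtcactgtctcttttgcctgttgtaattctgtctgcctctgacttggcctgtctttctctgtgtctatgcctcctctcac
Timp1: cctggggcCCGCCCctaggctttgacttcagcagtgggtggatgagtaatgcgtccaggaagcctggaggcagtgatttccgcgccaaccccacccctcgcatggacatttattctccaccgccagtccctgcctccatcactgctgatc

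Timp4, the TIMP known from heart and adipose tissue, was at 51.1, 36.0 and 5.03 CPM in the older tumors and at 1.38, 0.704 and 1.66 CPM in the younger tumors. Every older tumor was above every younger one, tumor 116 by the least, and tumor 102 held 53.3% of the summed CPM. Pooled counts of 345 against 19 gave a ratio of 22.4 (exact 95% interval 14.1 to 37.6, covering counting error only). The log2 fold change was 4.61 (SE 0.88, unadjusted p = 0.000899, adjusted p = 0.228, edgeR) and 4.03 without tumor 102, and DESeq2 gave an adjusted p of 7.64e-06. Timp4 had passed the filter on low counts through the older tumors alone, so these p-values are not read as support for a difference. Among the 34 tested members with a count in every tumor, Timp4 had the widest range, 72.7-fold from the lowest to the highest tumor, where the median was 5.56-fold for these members and 2.38-fold for all such genes.

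Syn2, the synapsin gene around Timp4, was also higher in the older tumors, at 11.2, 35.6 and 4.26 CPM against 1.20, 0.880 and 0.475 CPM. Its log2 fold change was 4.25 (SE 0.87, unadjusted p = 0.00142, adjusted p = 0.256, edgeR), and its highest tumor was 107 where that of Timp4 was 102. Only the gene bounds were compared, not the exons, and the strand setting is not given. Whether reads of Syn2 and Timp4 were mixed is therefore not known. Most of the listed adipocyte markers were also highest in tumor 102, but Lep was highest in tumor 107 (24.1 CPM, against 3.96 CPM in tumor 102). Fabp4 alone was at 129 CPM in tumor 102. All 4 tested adipocyte genes had higher fitted values in the older tumors, 0 of them with an unadjusted p under 0.05, and their summed level with the untested ones was 181, 40.6 and 21.1 CPM in older and 21.7, 16.9 and 10.2 CPM in younger tumors. Their part in the Timp4 difference was not tested.

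Timp1, an inhibitor that also binds the Mmp9 precursor and is induced by cytokines in many cell types, was at 10.6, 2.63 and 9.87 CPM in the older tumors and at 20.5, 20.6 and 20.7 CPM in the younger tumors. The younger tumors were almost equal, and each older tumor was below them. These values rest on 32, 12 and 51 counts in the older and 119, 117 and 87 counts in the younger tumors. Counts of this size carry a larger error than the SD of the younger tumors, so their equality is not read as constancy. Means were 7.69 ± 4.39 CPM and 20.6 ± 0.103 CPM (SD, n = 3 each), 2.67-fold higher in the younger tumors. The log2 fold change was -1.43 (SE 0.50, unadjusted p = 0.0228, adjusted p = 0.461, edgeR), and -1.01 without tumor 107. With each tumor left out in turn the unadjusted p stayed at or below 0.0534. Syn1, which surrounds it, was at 0.774 to 4.62 CPM and showed a log2 fold change of 0.14 (adjusted p = 0.979, edgeR).

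Timp2, which takes part in Mmp2 activation, was at 105, 74.0 and 55.0 CPM in the older and at 77.2, 68.1 and 34.4 CPM in the younger tumors. Timp3, which is bound to the matrix and also inhibits ADAMTS enzymes, was at 159, 167 and 123 CPM in the older and at 124, 248 and 86.2 CPM in the younger tumors. Neither separated the groups. Their log2 fold changes were 0.37 (SE 0.37, adjusted p = 0.880, edgeR) and -0.03 (SE 0.40, adjusted p = 0.992, edgeR).

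The shares of Timp4 and Timp1 in the TIMP reads both differed between the groups without overlap, in opposite directions. Timp4 made up 15.7%, 12.9% and 2.61% of TIMP reads in the older and 0.616%, 0.209% and 1.16% in the younger tumors, and Timp1 made up 3.25%, 0.941% and 5.11% against 9.17%, 6.10% and 14.5%. Summed TIMP reads did not separate the groups, at 325.3, 279.8 and 193.2 CPM in the older and 223.1, 337.2 and 143 CPM in the younger tumors. Nor did the summed MMP and ADAMTS reads, at 1158, 1145 and 1283 CPM in the older and 1757, 1018 and 929.8 CPM in the younger tumors. The ratio of protease to TIMP reads was 3.56, 4.09 and 6.64 in the older and 7.87, 3.02 and 6.5 in the younger tumors, and it overlapped. The plot of family sums shows tumors 157 and 158, both younger, at the ends of this range.

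**Figure D4:**
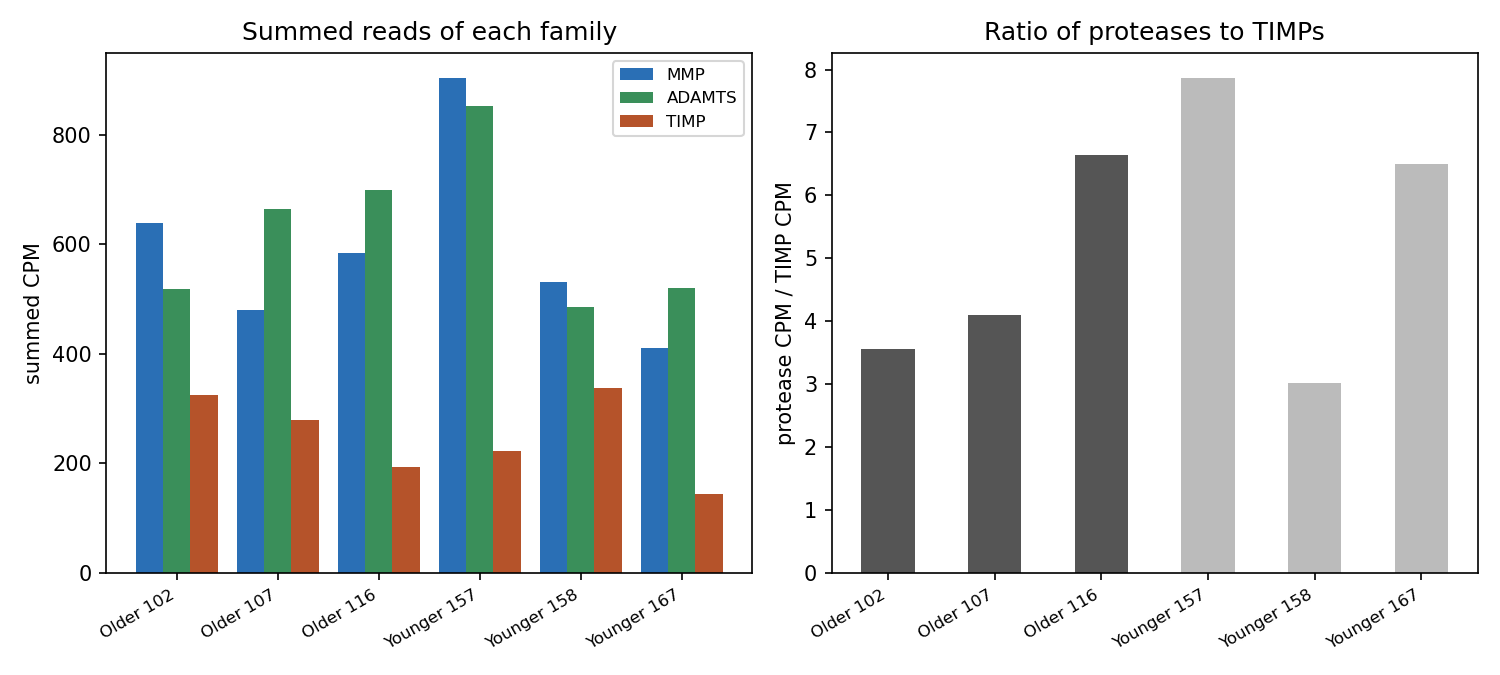
Left, summed CPM of the 23 MMP, 19 ADAMTS and 4 TIMP genes in each tumor; right, ratio of summed MMP and ADAMTS reads to summed TIMP reads, in dark grey for older and light grey for younger tumors. The ratio runs from 3.02 in tumor 158 to 7.87 in tumor 157, and the age groups overlap.

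The tumors also differed within each age group across these genes. Tumor 167 had the lowest level of 14 of the 37 tested genes, beside the lowest level of 18.2% of all genes. Tumor 102 had the lowest level of 9, beside 27.3% of all genes. Tumor 157 had the highest level of 9, beside the highest level of 13.8% of all genes. Mmp9, Mmp13, Mmp14 and Mmp15 were among these 9. The narrowest ranges over the 6 tumors were 1.48-fold for Adamts6 and 1.63-fold for Adamts10. In the heat map the age groups part in the rows of Mmp7, Mmp11, Mmp12, Adamts10, Adamts14, Timp4 and Timp1. Most other rows change from tumor to tumor within a group.

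**Figure D5:**
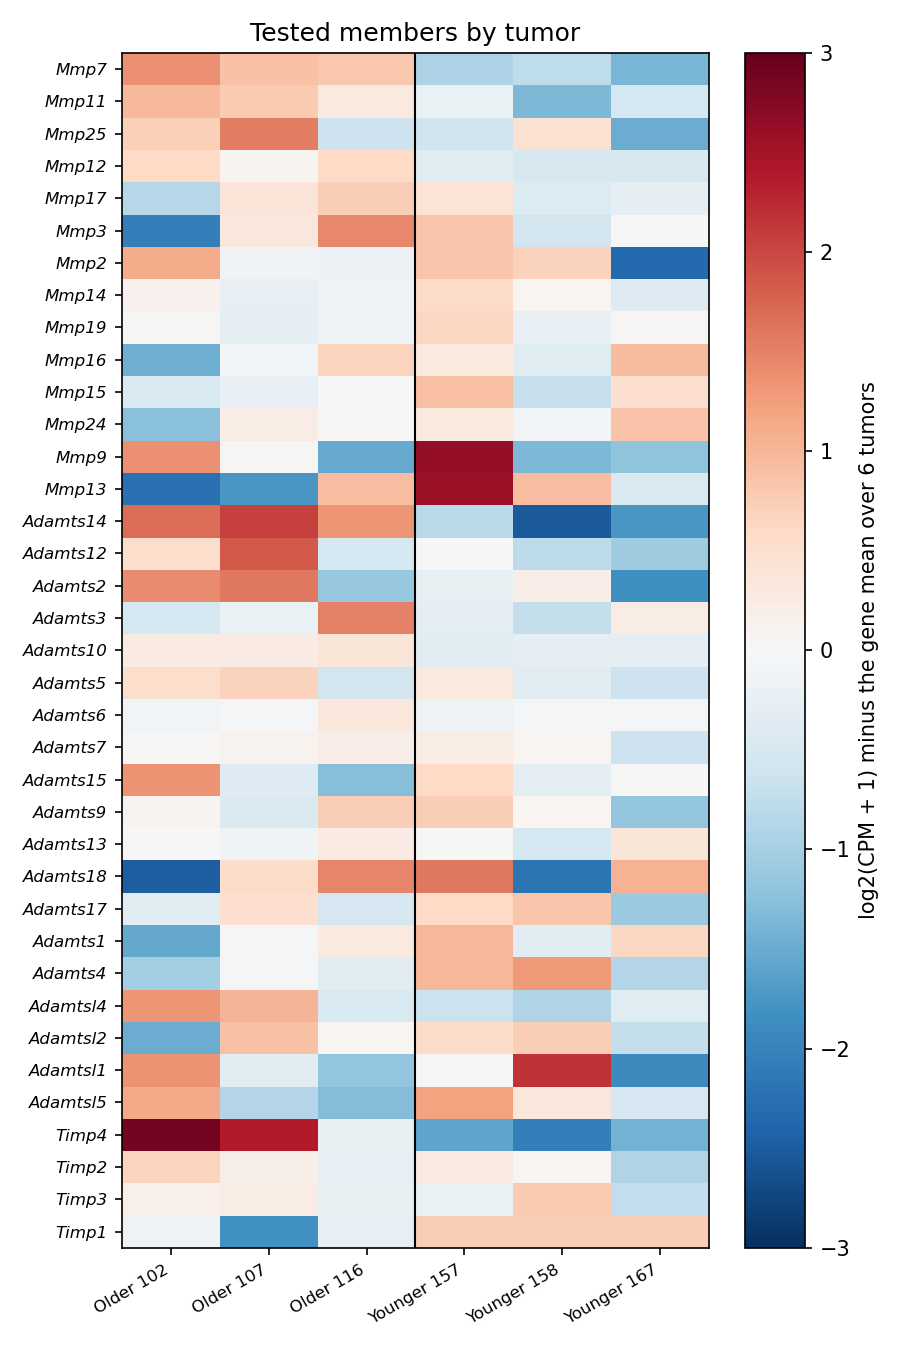
Log2(CPM + 1) of the 37 tested genes in each tumor minus the gene's mean over the 6 tumors, with red above and blue below the mean and a line between the 3 older and the 3 younger tumors. Adamts14, Mmp7 and Timp4 are red or near 0 in all older columns and blue in all younger ones, and Mmp9 and Mmp13 are darkest red in tumor 157.

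Other genes that act on or with these proteases were counted from a list of 49 activators, inhibitors, docking partners, related ADAM sheddases and substrates. Of these, 40 were tested, with 17 higher and 23 lower in older tumors, 0 called by edgeR after adjustment and 7 with an unadjusted p under 0.05, beside 8.55% of all genes tested. Of the 7, 2 were higher and 5 lower, beside 5.28% and 3.26% of all genes. Cldn1, a tight junction claudin that can recruit MMP precursors, was at 36.6, 12.7 and 24.6 CPM in the older and 3.44, 3.17 and 4.99 CPM in the younger tumors. The groups did not overlap, and the log2 fold change was 2.67 (SE 0.47, adjusted p = 0.218 by edgeR and 9.98e-05 by DESeq2). Sdc1, a heparan sulfate proteoglycan that is shed by MMPs, was lower in the older tumors, at 62.7, 102 and 105 CPM against 264, 167 and 190 CPM. Its log2 fold change was -1.20 (SE 0.30, adjusted p = 0.316 by edgeR and 0.0281 by DESeq2), and the groups did not overlap.

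Of the 9 tested activators, 3 had higher and 6 had lower fitted values in older tumors, and 2, Furin and Hpn, had an unadjusted p under 0.05. Plg, Pcsk6 and Plau were the 3 on the higher side, with log2 fold changes of 1.25, 0.63 and 0.51. Furin, which removes the propeptide of Mmp11, the membrane-type MMPs and ADAMTS enzymes, was at 293, 243 and 322 CPM in the older and 472, 538 and 400 CPM in the younger tumors. All older tumors were below all younger ones, at a log2 fold change of -0.72 (SE 0.26, adjusted p = 0.476, edgeR). Hpn, a membrane serine protease, was at 5.28, 10.5 and 16.6 CPM against 20.5, 31.8 and 39.9 CPM, a log2 fold change of -1.49 (SE 0.46, adjusted p = 0.386, edgeR). Cd44, a hyaluronan receptor that docks Mmp9, and Adam12 were also lower in every older tumor, with log2 fold changes of -0.64 and -0.73, whereas Adam19 was higher at 2.26 with overlapping groups. None of the 8 tested substrates and none of the 9 tested inhibitors and clearance genes had an unadjusted p under 0.05.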

How the data were processed

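Bulk RNA-seq of 6 rat mammary tumors, 3 per age group, was analysed from deposited read counts. Per the study's methods and the submitters' processing notes, the authors trimmed reads with Trimmomatic, aligned them with STAR, marked duplicates with Picard and made the deposited read counts per gene with HTSeq 0.13.5 on mRatBN7.2, without normalization. The annotation release and the strand setting are not given in the sources used here. The labels and the protocol differ on the RNA (polyA against depletion of ribosomal RNA) and on the read length (100 against 150 bases). Columns were matched to tumors by the tumor number, and 0 columns were left unused. Each tumor was taken as 1 replicate, so p-values set the difference between the age groups against the spread between tumors within a group.

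Counts were tested in R 4.3.3 with edgeR 4.0.16 (TMM scaling, filterByExpr with the age group, quasi-likelihood test without covariates, Benjamini-Hochberg adjustment over 14060 genes, threshold 0.05), and the fit was checked on simulated counts with known changes. The 4367 rows without a name were kept. DESeq2 1.42.0, the tool the study names, and limma 3.58.1 (voom) were alternatives, with other scalings, filters on low counts, removal of the 10 most abundant genes and each tumor left out. CPM are counts scaled to a common total with the TMM factors. Standard errors were calculated back from the F statistic, and intervals of pooled count ratios are exact 95% intervals, for counting error only. Totals of 3508571 to 6525830 counts set the precision of genes below about 5 CPM.

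The members and lists were chosen with earlier results of these data known. In full were named the members with an unadjusted p under 0.05, those with groups apart and a mean of at least 1 CPM, the TIMPs, and those with over 50% of their summed CPM in 1 tumor. A further part of the rule, the highest levels per coding length, was not used as no lengths were used here. The remaining members and pathway genes printed were chosen with their values known. Symbols of all 51 members were found in the RefSeq gene list of GRCr8, from which only order and overlap were used, and 40 in RefSeq promoters of GRCr8.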

Additional observations from a re-analysis of the deposited data

How the results depend on the processing

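With edgeR, 0 genes and 0 members were called with size factors or library totals in place of TMM, when the 10 most abundant genes were removed, when every tumor had to have 10 counts, and when each tumor was left out. DESeq2 called 346 genes and 3 members, and its estimates for Mmp7, Adamts14 and Timp4 were 3.77, 4.16 and 4.63 on the log2 scale. Testing every gene with a count in any tumor called 1 gene and 0 members. Limma-voom called 0 of either. Requiring 10 counts in every tumor left 27 members and 5 with an unadjusted p under 0.05 (Adamts10, Adamts12, Adamtsl4, Mmp12 and Timp1), since Mmp7, Mmp11, Adamts14 and Timp4 were then not tested; other settings gave 7 to 11. The sign of Timp3 turned with voom (0.10) and ran from -0.32 to 0.51 with a tumor left out, and that of Mmp9 ran from -2.07 to 2.16, positive without tumor 157; both were far from the threshold. The TIMP median was -0.03 with 10 counts in every tumor, and the MMP median 0.30 with any count. No paired analysis was possible because the tumor numbers of the age groups share none. For genes with fewer than about 10 counts per tumor the intervals of the ratios are wide.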
